A study of Mus musculus with 45 samples.

Results

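The mRNAs of the cytosolic ribosomal proteins were followed through early mouse development and in embryonic stem cells, with and without the transcription factor GABPA. The set holds 82 of the 55385 genes in the deposited tables, 31 for proteins of the small (40S) subunit and 51 for proteins of the large (60S) subunit. Members are the protein-coding genes named *Rps* or *Rpl* with a number, with or without the endings a, x, l or l1, together with *Rplp0*, *Rplp1*, *Rplp2* and *Rpsa*. The S6 kinases (*Rps6k*) and genes named as pseudogenes were left out. All embryos and cells, controls included, carried FKBP F36V and HA tags on both *Gabpa* alleles (*Gabpa*-dTAG/dTAG). dTAG13 is a small molecule that brings the tagged protein to a ubiquitin ligase, so that GABPA protein is lost while its mRNA is still made, and the controls received the solvent DMSO. RNA was measured in 18 libraries. Late two-cell embryos were exposed to 1 μM dTAG13 from the mid-zygote stage (3 DMSO and 3 dTAG13 libraries), morulae from the four-cell stage (2 and 2), and embryos for E4.5 ICM from the early blastocyst (2 and 2). The ICM was freed of trophectoderm by immunosurgery and holds epiblast and primitive endoderm together. 2iES cells are embryonic stem cells grown in 2i and LIF from picked clones of an E14-derived line, and received 0.5 μM dTAG13 for 24 h (2 and 2 libraries). How many embryos went into a library is not given in the sources used here, and p-values measure the spread between these libraries only.

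A cytosolic ribosome joins a small subunit, which decodes the mRNA, to a large subunit, which forms the peptide bond. Most ribosomal proteins, though not all, are present in 1 copy per subunit, so these are needed in equal numbers. Most mRNAs of ribosomal proteins begin with a tract of pyrimidines (the TOP motif) through which growth signals control their translation. Several members have a paralogue that can take their place, among them *Rps27l*, a p53-responsive copy of *Rps27*, and *Rpl39l*, *Rpl10l* and *Rpl3l*, which are best known from germ cells or muscle. GABPA is an ETS family factor that binds DNA with a GGAA core and is known for its many sites in promoters of housekeeping genes.

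Promoters of 7 members whose mRNA moved with dTAG13 are printed first, to show where the letters that GABPA is known to bind, or close variants, lie near these starts. They were taken from RefSeq on GRCm38.p6 and run from 250 bases before the start to 30 bases after it, 5′ to 3′ on the gene's strand. Capitals mark CCGGAA or GGAAGTG on either strand (TTCCGG and CACTTCC on the opposite one). The 2 motifs can overlap, and were chosen with results of these data known. *Rps27* (chr3:90213619-90213898, minus strand), *Rpl37* (chr15:5116363-5116642, plus strand), *Rps21* (chr2:180257129-180257408, plus strand, the upstream one of its 2 starts), *Rps18* (chr17:33955636-33955915, minus strand), *Rpl39l* (chr16:10169978-10170257, plus strand), *Rps13* (chr7:116334161-116334440, minus strand) and *Rps27l* (chr9:66945836-66946115, plus strand, the upstream one of its 2 starts) read as follows.
Rps27: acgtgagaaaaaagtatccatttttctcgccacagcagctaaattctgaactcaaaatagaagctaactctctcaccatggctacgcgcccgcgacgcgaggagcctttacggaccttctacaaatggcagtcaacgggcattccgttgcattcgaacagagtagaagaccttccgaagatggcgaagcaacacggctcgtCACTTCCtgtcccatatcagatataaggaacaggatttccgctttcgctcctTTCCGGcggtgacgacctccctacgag
Rpl37: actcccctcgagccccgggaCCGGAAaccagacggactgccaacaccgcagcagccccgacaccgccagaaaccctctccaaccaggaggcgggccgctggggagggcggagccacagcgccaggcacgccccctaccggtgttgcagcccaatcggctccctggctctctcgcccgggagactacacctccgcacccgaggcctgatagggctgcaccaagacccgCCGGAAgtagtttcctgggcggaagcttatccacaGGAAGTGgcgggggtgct
Rps21: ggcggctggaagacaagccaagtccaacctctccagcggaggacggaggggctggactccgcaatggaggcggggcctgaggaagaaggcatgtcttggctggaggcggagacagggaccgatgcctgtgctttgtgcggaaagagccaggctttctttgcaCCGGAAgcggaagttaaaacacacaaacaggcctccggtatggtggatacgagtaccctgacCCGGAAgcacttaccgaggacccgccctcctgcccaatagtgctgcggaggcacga
Rps18: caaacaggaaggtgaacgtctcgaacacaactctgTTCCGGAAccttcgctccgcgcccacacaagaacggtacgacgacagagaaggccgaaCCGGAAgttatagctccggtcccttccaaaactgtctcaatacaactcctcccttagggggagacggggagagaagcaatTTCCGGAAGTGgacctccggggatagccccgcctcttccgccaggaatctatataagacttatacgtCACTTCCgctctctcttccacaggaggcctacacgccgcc
Rpl39l: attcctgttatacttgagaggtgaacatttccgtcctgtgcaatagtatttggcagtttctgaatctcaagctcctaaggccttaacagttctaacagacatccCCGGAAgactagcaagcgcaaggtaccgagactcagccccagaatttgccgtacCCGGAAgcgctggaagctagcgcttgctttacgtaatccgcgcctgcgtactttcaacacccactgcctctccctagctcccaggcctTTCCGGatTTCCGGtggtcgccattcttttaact
Rps13: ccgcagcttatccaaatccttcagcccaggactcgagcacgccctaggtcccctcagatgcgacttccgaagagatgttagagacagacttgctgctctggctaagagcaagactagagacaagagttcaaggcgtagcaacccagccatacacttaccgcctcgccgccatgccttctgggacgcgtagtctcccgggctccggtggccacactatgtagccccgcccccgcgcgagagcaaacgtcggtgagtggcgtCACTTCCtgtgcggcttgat
Rps27l: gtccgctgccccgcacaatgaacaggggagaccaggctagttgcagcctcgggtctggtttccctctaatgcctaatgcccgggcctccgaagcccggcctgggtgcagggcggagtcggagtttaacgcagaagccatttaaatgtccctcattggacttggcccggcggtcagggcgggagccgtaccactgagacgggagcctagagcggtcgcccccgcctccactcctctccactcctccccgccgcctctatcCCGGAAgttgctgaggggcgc

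RefSeq windows of 300 bases matched 62 of the 82 members. The letters CCGGAA stood in 34 of these 62 (54.8%), against 16.7% of all 27025 genes with a window, and GGAAGTG stood in 14 (22.6%), against 12.5%. A run of at least 8 pyrimidines between 10 bases before and 20 bases after the start was found in 24 members (38.7%), against 13.0% of all genes. The other 20 members, among them *Rps14*, *Rpl29*, *Rpl32* and *Rps29*, had no window in the table. These matches describe letters only.

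Libraries held between 9457933 and 27660132 expected counts, with the morulae lowest. The mRNA of *Gabpa* itself was 106, 116 and 87.3 TPM with DMSO and 162, 142 and 156 TPM (a level per transcript length) with dTAG13 in late two-cell embryos, and was higher with dTAG13 in every library of every stage (log2 fold change from 0.52 to 0.95; adjusted p = 0.152 in morulae). It checks the labels only in part, since dTAG13 removes the protein. The E4.5 ICM libraries with dTAG13 differed from their controls in cell markers. Of 6 trophectoderm markers the summed level was 69.2 to 74.8 TPM with DMSO and 774 to 775 TPM with dTAG13, while 6 epiblast and naive markers summed to 478 to 488 TPM and 196 to 204 TPM and 6 primitive endoderm markers to 234 to 242 TPM and 309.6 to 309.8 TPM. None of these 18 markers was at 0 in the ICM. Transcripts of the mitochondrial genome took 0.93 and 5.47% of TPM in the DMSO and 10.8 and 9.58% in the dTAG13 libraries of 2iES cells. They took 12 and 10.8% and 16.8 and 16.5% in the ICM.

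In control embryos the ribosomal protein mRNAs rose together between the late two-cell stage and the morula. The 82 members summed to 4.87, 5.02 and 5.3% of all TPM in the late two-cell controls, 20.4 and 17.2% in morulae, 12.1 and 12.3% in ICM and 16.7 and 16.2% in 2iES cells. No control group overlapped with another, and the order was late two-cell, ICM, 2iES cells, morula. The plot of summed levels shows this for every library.

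**Figure D1:**
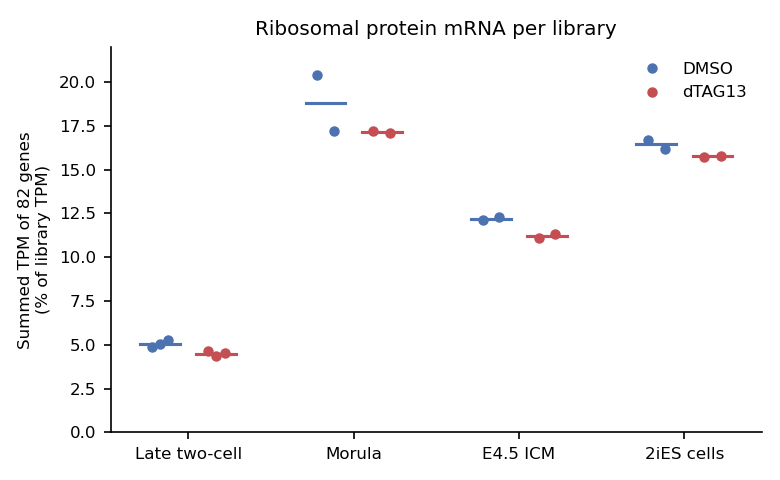
Summed TPM of the 82 ribosomal protein genes as a percentage of all TPM in a library (vertical axis, linear from 0) at the 4 stages, with 1 point per library and a bar at the group mean. Late two-cell libraries lie between 4.37% and 5.3%, and all others lie above 11%.

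From late two-cell embryos to morulae 78 of 82 members rose and 1 fell at an adjusted p under 0.05, where 31.2% of 19830 genes rose and 38.0% fell (edgeR quasi-likelihood test on the 9 control libraries). At least 2-fold with a mean FPKM of 1 or more, 77 rose and 1 fell, against 22.6% and 27.7% of all genes. The median log2 fold change was 2.52 over the members and -0.28 over all genes tested. *Rpl12*, a protein of the stalk base, rose most, from 78.2, 80.8 and 78.7 TPM to 1180.0 and 898 TPM (log2 fold change 3.99 ± 0.14, adjusted p = 8.37e-10; here and below ± after a log2 value is the standard error). *Rpl8* (3.80 ± 0.18, adjusted p = 4.29e-09), *Rpl36a* (3.61 ± 0.14, adjusted p = 1.19e-09), *Rps20* (3.46 ± 0.15, adjusted p = 2.69e-09) and *Rpl7a* (3.40 ± 0.14, adjusted p = 1.45e-09) followed. The gains were smallest among the members that passed for *Rpl41* (0.92 ± 0.12, adjusted p = 2.35e-05), whose product is the shortest ribosomal protein, and for the paralogues *Rpl22l1* (1.25 ± 0.16, adjusted p = 2.1e-05), *Rpl39l* (1.42 ± 0.14, adjusted p = 1.7e-06) and *Rps27l* (1.45 ± 0.12, adjusted p = 3.65e-07). *Rpl3l*, the muscle form of *Rpl3*, was the member that fell, from 8.88, 10.1 and 10.6 TPM to 0 and 0.34 TPM (-5.39 ± 0.63, adjusted p = 8.6e-06). *Rplp0*, the scaffold of the stalk, was at 1606, 1810.2 and 1866 TPM and 1252 and 1263 TPM, and did not pass (-0.14 ± 0.12, adjusted p = 0.322).

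Members differed widely in level within a stage. *Rpl41* was the most abundant in late two-cell controls (7157 ± 320.5 TPM, mean ± SD, n = 3), ahead of *Rps27l* (2124 ± 130.3 TPM). In control morulae the highest were *Rpl41* (10211 ± 1048 TPM, n = 2), *Rps29* (8908 ± 1473 TPM) and *Rps25* (7409 ± 362 TPM). In control ICM they were *Rps25* (5938 ± 5.7 TPM, n = 2), *Rpl41* (4206 ± 152 TPM) and *Rps29* (4167 ± 64 TPM), and in control 2iES cells the highest included *Rpl32* (4686 ± 31.3 TPM, n = 2) and *Rps29* (4666 ± 21.7 TPM). The median member was at 429 TPM in late two-cell, 1917 TPM in morula, 1264 TPM in ICM and 1700.1 TPM in 2iES controls.

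Against control morulae, 69 of 82 members were lower in control ICM and 1 was higher, where 21.0% of all genes were lower and 24.6% higher. At least 2-fold lower were 38, against 13.2% of all genes. The median log2 fold change was -0.95 over the members and 0.00 over all genes. The largest decreases were those of *Rpl39l* (-2.38 ± 0.16, adjusted p = 3.73e-07), *Rplp1* (-1.97 ± 0.23, adjusted p = 2.97e-05), *Rps24* (-1.76 ± 0.18, adjusted p = 8.68e-06), *Rpl41* (-1.75 ± 0.14, adjusted p = 1.25e-06) and *Rpl38* (-1.73 ± 0.17, adjusted p = 7.33e-06). *Rpl7l1*, a relative of *Rpl7* with a role in ribosome assembly, was the member that was higher (0.51 ± 0.17, adjusted p = 0.0314), and lost its call when morula replicate 1 or either ICM library was left out. Among the smallest decreases that passed were those of *Rps9* (-0.44 ± 0.15, adjusted p = 0.0288), *Rpl13* (-0.44 ± 0.15, adjusted p = 0.0269) and *Rpl10l* (-0.45 ± 0.17, adjusted p = 0.0455).

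Control 2iES cells held more of these mRNAs than control ICM for 77 of 82 members and less for 1, with 21.9% of all genes higher and 20.7% lower. At least 2-fold higher were 52, against 12.0% of all genes, and the median log2 fold change was 1.11 over the members. The size of this difference, and for some members its sign, depends on the scaling. With library totals in place of TMM the median of the members was 0.64 and that of all genes -0.33, and 60 members were higher, 4 of them 2-fold. *Rpl39l* was the lower member, at 217 and 225 TPM in ICM and 12.5 and 9.48 TPM in 2iES cells (-3.60 ± 0.18, adjusted p = 5.57e-08). Highest relative to ICM were *Rpl3l*, at under 1 TPM in all 4 libraries (2.93 ± 0.65, adjusted p = 0.00325), *Rpl22l1* (1.55 ± 0.18, adjusted p = 3.54e-05), *Rpl32* (1.55 ± 0.14, adjusted p = 5.82e-06), *Rps7* (1.54 ± 0.13, adjusted p = 4.33e-06) and *Rps12* (1.5 ± 0.20, adjusted p = 0.000114). The smallest differences that passed as higher have no settled direction. *Rpl3* (0.34 ± 0.12, adjusted p = 0.0441) was at 1224 and 1224 TPM in ICM and 1076 and 958 TPM in 2iES cells, and *Rpl4* (0.44 ± 0.13, adjusted p = 0.0183) at 1391 and 1411 TPM and 1249 and 1208 TPM. *Rpl37a* (0.54 ± 0.15, adjusted p = 0.0141) was at 2149 and 2226 TPM and 2119.8 and 2013 TPM, and *Rpl17* (0.55 ± 0.18, adjusted p = 0.0232) at 872 and 864 TPM and 686 and 971 TPM. By TPM the first 3 of these were lower in 2iES cells and *Rpl17* overlapped. These are bulk libraries, in which fewer cells of a type and less RNA per cell cannot be told apart.

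With GABPA degraded, the summed level moved little at any stage, while single members fell far at every stage but the morula. In the dTAG13 libraries the members made up 4.62, 4.37 and 4.51% of TPM for late two-cell embryos, 17.2 and 17.1% for morulae, 11.1 and 11.3% for the ICM and 15.7 and 15.8% for 2iES cells. These values lay at or below the lowest control of the same stage. For 2iES cells the order turned with the measure. Without mitochondrial transcripts in the total, the DMSO libraries held 16.8 and 17.1% and the dTAG13 libraries 17.6 and 17.5%, and of expected counts the members took 9.48 and 9.4% and 9.89 and 10%. The plot of fold changes by stage places every member.

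At the late two-cell stage 21 of 82 members fell and 2 rose at an adjusted p under 0.05, where 7.24% of 17421 genes fell and 1.32% rose. The members that fell at least 2-fold were 3, or 3.66%, against 3.63% of all genes, so the share of large decreases was near that background, and 0 members rose at least 2-fold with edgeR, DESeq2 or limma (0.476% of all genes). The median log2 fold change was -0.20 over the members (quartiles -0.34 and -0.10) and 0.02 over all genes. The 5 oocyte markers summed to 1349.8 to 1362 TPM with DMSO and 1715 to 1943 TPM with dTAG13 in the same libraries, and their part in the result was not tested. With upper-quartile scaling, which shifted the median of all genes to 0.14, 11 members fell. Leaving out DMSO replicate 3 gave 13 and leaving out dTAG13 replicate 1 gave 11.

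*Rpl39l* (ENSMUSG00000039209.12, chr16:10170226-10174911), the paralogue of *Rpl39*, a small protein that lines the exit tunnel, was at 392, 401 and 415 TPM with DMSO and 137, 117 and 148 TPM with dTAG13 (log2 fold change -1.66 ± 0.10, adjusted p = 7.25e-06). *Rps27* (ENSMUSG00000090733.6, chr3:90212522-90213651), a zinc-binding protein of the small subunit, was at 974, 998 and 1124 TPM with DMSO and 429, 461 and 423 TPM with dTAG13 (-1.33 ± 0.10, adjusted p = 2.15e-05). *Rps18* (ENSMUSG00000008668.15, chr17:33951999-33956001), a protein of the small subunit head, was at 247, 232 and 287 TPM with DMSO and 140.4, 101 and 111 TPM with dTAG13 (-1.19 ± 0.13, adjusted p = 0.000252). Spans here are those of the gene on GRCm38. For each of these 3 genes every dTAG13 library lay below every control. *Rpl27* (-0.88 ± 0.10, adjusted p = 0.000275) and *Rpl34* (-0.87 ± 0.10, adjusted p = 0.00033) were next. The 2 members that rose were *Rps21* (ENSMUSG00000039001.12, chr2:180257377-180258445), at 489, 476 and 525 TPM with DMSO and 718, 678 and 659 TPM with dTAG13 (0.41 ± 0.09, adjusted p = 0.0158), and *Rpl37*, at 634, 630.2 and 683 TPM with DMSO and 799, 803 and 786 TPM with dTAG13 (0.36 ± 0.08, adjusted p = 0.0154). Neither overlapped with its controls, but both lost their call when DMSO replicate 1, dTAG13 replicate 1 or dTAG13 replicate 2 was left out, with an adjusted p of 0.0686, 0.0626 and 0.078 for *Rps21* and 0.0661, 0.0531 and 0.0806 for *Rpl37*. The next highest were *Rpl3l* (0.31, adjusted p = 0.489), *Rpl22* (0.23, adjusted p = 0.404) and *Rpl28* (0.21, adjusted p = 0.337).

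In morulae no member passed in either direction with edgeR, DESeq2 or limma, and 0.205% of 13667 genes were lower and 0.161% higher. At an unadjusted p under 0.05, 2 of 81 members were lower and 0 higher by each of the 3 tools. The median log2 fold change was -0.13 over the members and -0.02 over all genes. The lowest values belonged to *Rplp1* (-0.52 ± 0.25, adjusted p = 0.377), *Rpl27a* (-0.47 ± 0.22, adjusted p = 0.364), *Rpl12* (-0.47 ± 0.20, adjusted p = 0.338), *Rps12* (-0.46 ± 0.23, adjusted p = 0.409) and *Rps27* (-0.41 ± 0.21, adjusted p = 0.41). *Rps27* stood at 3943 and 2907 TPM with DMSO and 2641 and 2605 TPM with dTAG13. Here the first DMSO library was high for several members, as for *Rplp1* at 5144 and 2951 TPM with DMSO and 2908 and 2812 TPM with dTAG13. Without DMSO replicate 2, which leaves that library as the lone control, 6 members passed as lower. Wherever a left-out library leaves 1 in a group, here and at the other stages with 2, the lone library is assumed to vary like the rest. The highest values were those of *Rpl5* (0.28 ± 0.19, adjusted p = 0.532), *Rpl7l1* (0.27 ± 0.21, adjusted p = 0.597), *Rps6* (0.21 ± 0.18, adjusted p = 0.65), *Rpl4* (0.14 ± 0.18, adjusted p = 0.786) and *Rplp0* (0.14 ± 0.18, adjusted p = 0.787).

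In the E4.5 ICM 48 of 81 members fell and 20 rose, where 38.5% of 15840 genes fell and 38.4% rose. The 4 ICM libraries agreed closely within their groups, and changes as small as those of *Rpl26* below passed. The members that fell at least 2-fold were 3, against 13.2% of all genes, and the median log2 fold change was -0.10 over the members and 0.01 over all genes. With upper-quartile scaling, which shifted the median of all genes to 0.11, 34 fell and 30 rose, and with library totals 35 fell and 30 rose. In the fit of all 18 libraries, which shares 1 estimate of the spread, 22 fell and 4 rose. The trophectoderm, epiblast and mitochondrial values given above moved with dTAG13 in these libraries, and their part in the result was not tested.

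*Rps27* was at 2181 and 2253 TPM with DMSO and 660.2 and 618 TPM with dTAG13 (-1.80 ± 0.03, adjusted p = 2.13e-34). *Rpl37* (ENSMUSG00000041841.8, chr15:5116645-5119140), a zinc-binding protein of the large subunit, was at 1153 and 1152 TPM with DMSO and 455 and 488 TPM with dTAG13 (-1.31 ± 0.03, adjusted p = 6.2e-31). *Rps14*, a protein of the small subunit platform whose loss of 1 copy causes anaemia, was at 2816 and 2832 TPM with DMSO and 1178 and 1212 TPM with dTAG13 (-1.25 ± 0.02, adjusted p = 2.15e-33). In all 3 cases the 2 dTAG13 libraries lay together and far below the 2 controls. *Rpl35*, beside the exit tunnel, was at 946 and 1004 TPM with DMSO and 526 and 547 TPM with dTAG13 (-0.87 ± 0.03, adjusted p = 1.43e-25), although 88.76% of its 31-base words also occur in transcripts of other genes. *Rpl22l1* was at 314 and 299 TPM with DMSO and 149 and 157 TPM with dTAG13 (-0.86 ± 0.04, adjusted p = 1.39e-19). The member that rose most was *Rps27l* (ENSMUSG00000036781.13, chr9:66946086-66949516), at 2335 and 2314 TPM with DMSO and 3601 and 3617 TPM with dTAG13 (0.61 ± 0.02, adjusted p = 2.87e-24). Smaller increases were found for *Rpl10* (0.31 ± 0.02, adjusted p = 7.83e-16), *Rpl22* (0.31 ± 0.03, adjusted p = 2.6e-10), *Rps10* (0.30 ± 0.03, adjusted p = 1.59e-12) and *Rpl26* (0.29 ± 0.02, adjusted p = 1.66e-13).

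In 2iES cells the members split, with 25 of 82 lower (30.5%) and 17 higher (20.7%), against 28.1% and 26.5% of 15511 genes. At least 2-fold lower were 4 and higher 1, against 15.6% and 12.4% of all genes. The median log2 fold change was -0.05 over the members (quartiles -0.32 and 0.28) and 0.03 over all genes. Upper-quartile scaling turned the balance, with 16 lower and 31 higher and a median of 0.13 over the members and 0.21 over all genes. Without the mitochondrial transcripts, whose share differed between the groups, the median of the members was again -0.05. The counts leaned on single libraries: 40 fell without DMSO replicate 2, 14 fell and 7 rose without dTAG13 replicate 1, and 16 fell and 2 rose without dTAG13 replicate 2.

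*Rps27* had the lowest value, at 2152 and 2614 TPM with DMSO and 409 and 395 TPM with dTAG13 (-2.42 ± 0.13, adjusted p = 3.85e-05). *Rpl37* was at 1620.3 and 1669 TPM with DMSO and 487 and 476 TPM with dTAG13 (-1.62 ± 0.09, adjusted p = 5.11e-05). *Rpl29* (ENSMUSG00000048758.14, chr9:106429454-106431568), a small protein of the large subunit, was at 1795 and 1505 TPM with DMSO and 583 and 598 TPM with dTAG13 (-1.37 ± 0.11, adjusted p = 0.000167). In each the dTAG13 libraries were close to each other and below both controls. *Rps21*, which had risen at the late two-cell stage, was at 1557 and 1491 TPM with DMSO and 568 and 577 TPM with dTAG13 (-1.29 ± 0.09, adjusted p = 0.00012). *Rpl3l* also passed (-1.91 ± 0.55, adjusted p = 0.024) but stayed under 1 TPM in all 4 libraries and lost its call without dTAG13 replicate 1 (adjusted p = 0.181) and in DESeq2 (adjusted p = 0.0862). *Rps27l* rose, at 3782 and 3730.4 TPM with DMSO and 7466 and 7908 TPM with dTAG13 (1.14 ± 0.09, adjusted p = 0.00015), and became the most abundant member of the set in the dTAG13 libraries. *Rps19*, the protein most often mutated in Diamond-Blackfan anaemia, was at 4494 and 3558 TPM with DMSO and 5703 and 6075 TPM with dTAG13 (0.72 ± 0.10, adjusted p = 0.00138). *Rps25* (0.64 ± 0.20, adjusted p = 0.0298) and *Rps24* (0.56 ± 0.14, adjusted p = 0.0146) rose as well, and both lost their call without dTAG13 replicate 2 (adjusted p = 0.102 and 0.0948). *Rpl9* did not pass (0.88 ± 0.36, adjusted p = 0.077), and its 2 controls, at 628 and 1517 TPM, differed more from each other than the second did from the dTAG13 libraries. The controls of *Rps25* were likewise apart, at 2758 and 4578 TPM, and its log2 fold change was 0.32 without DMSO replicate 1 and 0.97 without DMSO replicate 2. For *Rps24* these values were 0.34 and 0.76.

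**Figure D2:**
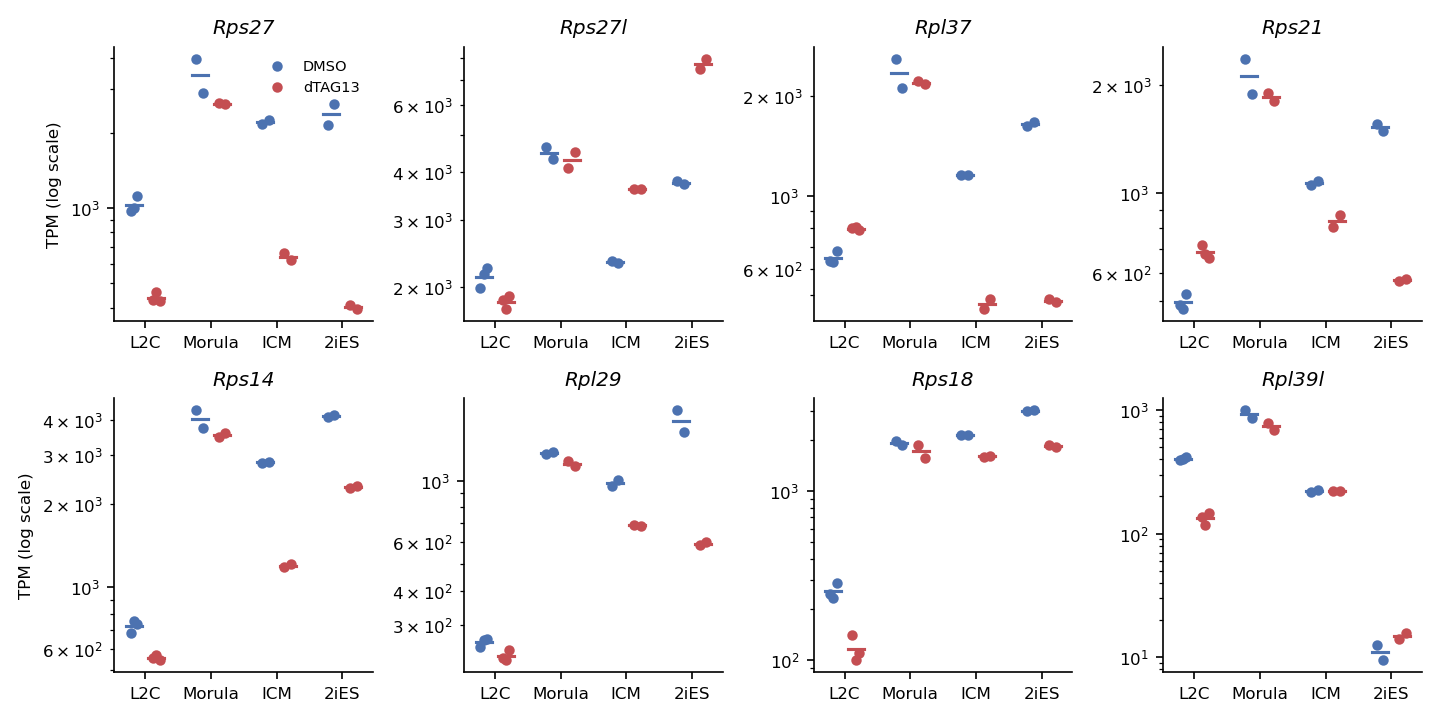
TPM (log axis, scaled for each panel) in every library for 8 ribosomal protein genes at the late two-cell stage (L2C), in morula, E4.5 ICM and 2iES cells, with DMSO or dTAG13 and bars at the group means. *Rps27* is lower with dTAG13 in all libraries of all 4 stages, at 409 and 395 TPM in treated 2iES cells against 2152 and 2614 TPM in controls.

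Across stages, 11 members fell in late two-cell embryos, ICM and 2iES cells alike: *Rpl22l1*, *Rpl27*, *Rpl30*, *Rpl31*, *Rpl36a*, *Rpl37a*, *Rpl38*, *Rps13*, *Rps14*, *Rps18* and *Rps27*. *Rpl4*, *Rpl8*, *Rplp1*, *Rps27a*, which is made fused to ubiquitin, and *Rps6*, the target of the S6 kinases, passed at none of these stages. Of the 48 members lower in the ICM, 23 (47.9%) were lower in 2iES cells, which is 92.0% of the 25 lower there, and 7 of the 20 higher in the ICM (35.0%) were among the 17 higher in 2iES cells (41.2%). The late two-cell list of 21 shared 16 members (76.2%) with the 48 of the ICM (33.3%) and 11 (52.4%) with the 25 of 2iES cells (44.0%). Over all genes 49.9% of the genes lower in the ICM were lower in 2iES cells (69.9% of that list), 35.7% of those higher were higher (52.7%), and of the genes lower in late two-cell embryos 78.7% were lower in the ICM (16.3%) and 67.7% in 2iES cells (19.6%). Lower at all 3 stages were 6.38% of the 12329 genes tested at each, and 13.6% of the 81 members. Over 81 members Pearson's r between the log2 fold changes of ICM and 2iES cells was 0.78, and between late two-cell embryos and ICM 0.32; the points are genes measured in the same libraries, not replicates.

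**Figure D3:**
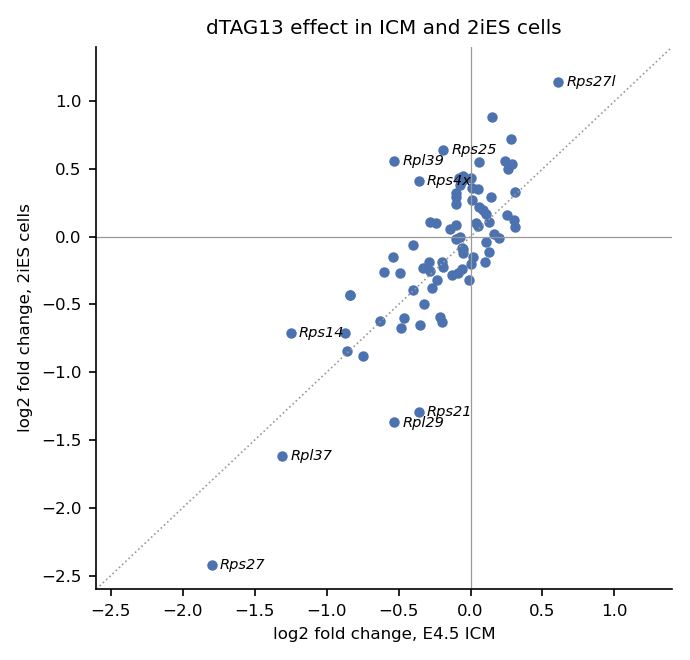
log2 fold change (dTAG13 against DMSO) of 81 ribosomal protein genes in E4.5 ICM (horizontal) and 2iES cells (vertical), with the diagonal dotted. *Rps27*, *Rpl37* and *Rps27l* lie at the ends of the cloud, and *Rpl39*, *Rps25* and *Rps4x* are negative in ICM and positive in 2iES cells.

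The difference between stages was tested as an interaction in a fit of all 18 libraries. The effect in ICM was lower than at the late two-cell stage for 6 members and higher for 13, against 9.87% and 10.4% of 21915 genes. Leaving out any 1 of the 10 libraries of both stages gave 3 to 8 higher. *Rpl37* differed most on the lower side (-1.65 ± 0.14, adjusted p = 5.08e-07), before *Rps14* (-0.84 ± 0.14, adjusted p = 0.000455), *Rps21* (-0.75 ± 0.16, adjusted p = 0.00272), *Rpl7l1* (-0.64 ± 0.18, adjusted p = 0.0201) and *Rpl35* (-0.59 ± 0.16, adjusted p = 0.0148). On the higher side stood *Rpl39l* (1.62 ± 0.17, adjusted p = 4.09e-06), *Rps27l* (0.91 ± 0.13, adjusted p = 9.8e-05), *Rpsa*, which also serves as a laminin receptor (0.81 ± 0.20, adjusted p = 0.00791), *Rps18* (0.75 ± 0.16, adjusted p = 0.00373) and *Rpl27a* (0.73 ± 0.21, adjusted p = 0.018). Between 2iES cells and ICM the effect was lower for 2 members, *Rps21* (-0.88 ± 0.17, adjusted p = 0.00191) and *Rpl29* (-0.79 ± 0.14, adjusted p = 0.0011), and higher for 11, against 7.42% and 9.93% of genes. Those 11 include *Rpl39* (1.13 ± 0.26, adjusted p = 0.00661), *Rps25* (0.87 ± 0.21, adjusted p = 0.00704), *Rps4x* (0.82 ± 0.17, adjusted p = 0.00254) and *Rps14* (0.58 ± 0.15, adjusted p = 0.0151). Without 1 of the 4 ICM libraries or 1 of the 2 dTAG13 libraries of 2iES cells, 3 to 5 were higher. The difference for *Rps27* did not pass (-0.57 ± 0.21, adjusted p = 0.0732), nor did those for *Rpl3l* (-2.41 ± 0.97, adjusted p = 0.0979), *Rpl31* (-0.39 ± 0.16, adjusted p = 0.095) and *Rpl9* (0.77 ± 0.35, adjusted p = 0.146). Between 2iES cells and late two-cell embryos 7 members were lower and 29 higher, against 9.83% and 13.1% of genes. Without DMSO replicate 2, DMSO replicate 3 or dTAG13 replicate 3 of the late two-cell stage 16 to 17 were higher. The lowest were *Rpl3l* (-2.15 ± 0.66, adjusted p = 0.0235), *Rpl37* (-1.91 ± 0.14, adjusted p = 5.79e-08), *Rps21* (-1.63 ± 0.16, adjusted p = 1.12e-06), *Rpl29* (-1.08 ± 0.13, adjusted p = 1.35e-05) and *Rps27* (-1.02 ± 0.19, adjusted p = 0.000973). The highest were *Rpl39l* (2.14 ± 0.18, adjusted p = 3.17e-07), *Rps27l* (1.48 ± 0.13, adjusted p = 4.5e-07), *Rpl9* (1.09 ± 0.32, adjusted p = 0.0192), *Rpl39* (1.02 ± 0.24, adjusted p = 0.00476) and *Rps19* (0.98 ± 0.15, adjusted p = 9.53e-05). The 3 differences use some libraries in common.

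Paralogues made up different shares of their pairs with and without dTAG13. *Rps27l* made up 67, 68.3 and 66.5% of the TPM of *Rps27* and *Rps27l* in late two-cell controls and 81.2, 79.1 and 81.7% with dTAG13. In the ICM the share was 51.7 and 50.7% and 84.5 and 85.4%, and in 2iES cells 63.7 and 58.8% and 94.8 and 95.2%. The groups did not overlap at these stages, nor in morulae (54.1 and 59.9% and 60.9 and 63.4%). The pair's sum went from 3156 ± 203 to 2266 ± 52.6 TPM (SD, n = 3) in late two-cell embryos and from 6139 ± 291 to 8089 ± 303 TPM (SD, n = 2) in 2iES cells. In the ICM, where it moved less than its parts, it went from 4542 ± 35.9 to 4248 ± 19.1 TPM (SD, n = 2). *Rpl22l1*, the paralogue of the RNA-binding *Rpl22*, made up 33.5 and 33.5% of its pair in ICM controls and 16.2 and 15.9% with dTAG13. In 2iES cells its share was 41.8 and 44% and 23.7 and 23.3%, and at the late two-cell stage 26.9, 26 and 31.7% and 16, 17.3 and 21.7%. *Rpl22* rose in ICM and in 2iES cells (0.33 ± 0.09, adjusted p = 0.021) while *Rpl22l1* fell (-0.84 ± 0.10, adjusted p = 0.00073). *Rpl39l* had a share of 35.8, 34.9 and 34.7% in late two-cell controls and 20.2, 16.8 and 18.6% with dTAG13, but 14.3 and 15% and 20.2 and 19% in the ICM. The direction of the share thus differed between the stages. In the ICM *Rpl39l* itself did not pass (-0.06 ± 0.04, adjusted p = 0.131), while *Rpl39* fell (-0.53 ± 0.03, adjusted p = 3.04e-19).

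**Figure D4:**
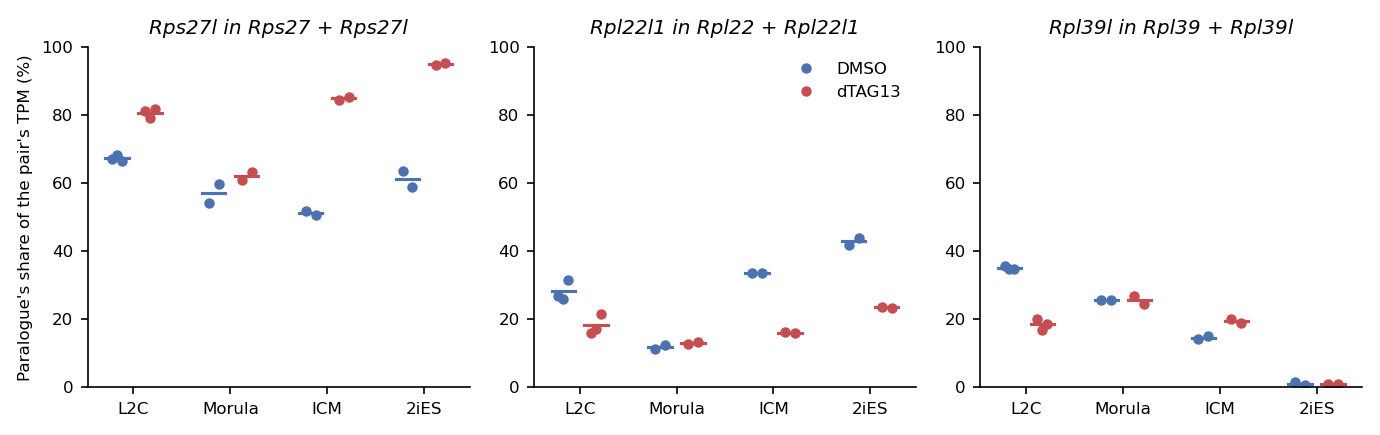
Share of the paralogue in the summed TPM of its pair (vertical axis, percent) in every library at the 4 stages, for *Rps27l*, *Rpl22l1* and *Rpl39l*, with bars at the group means. The share of *Rps27l* is higher with dTAG13 at every stage and reaches 95.2% in 2iES cells, and that of *Rpl22l1* is lower except in morulae.

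*Rpl7l1* made up 13.7 and 14.5% of its pair with *Rpl7* in ICM controls and 10.1 and 10.3% with dTAG13, and 13.4 and 13.5% and 8.16 and 8.13% in 2iES cells. Its share was higher with dTAG13 in late two-cell embryos, at 21.6, 18.7 and 20.3% and 24.5, 27.1 and 24.2%, and in morulae, at 4.38 and 7.19% and 7.34 and 7.85%. *Rpl10l* held 19 to 28.5% of its pair with *Rpl10* in the 6 late two-cell libraries and 3.46 to 5.61% in the 12 others. With dTAG13 its share was lower in the ICM (5.61 and 5.47% and 4.54 and 4.23%) and higher in 2iES cells (3.93 and 3.46% and 4.9 and 4.65%). *Rpl3l* held 7.5 to 14.3% of its pair with *Rpl3* at the late two-cell stage and under 0.1% elsewhere.

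Genes of the small and the large subunit were counted apart. In late two-cell embryos 7 of 31 *Rps* genes and 14 of 51 *Rpl* genes fell (median log2 fold change -0.18 and -0.21), and in the ICM 18 of 31 and 30 of 50 fell (-0.08 and -0.10). In 2iES cells 9 of 31 and 16 of 51 fell and 9 and 8 rose (0.00 and -0.11). Over all genes 7.24% fell in late two-cell embryos and 38.5% in the ICM, and in 2iES cells 28.1% fell and 26.5% rose. The counts that fell in 2iES cells lay near that share, as did the 9 *Rps* genes that rose. The 8 of 51 *Rpl* genes that rose lay below it. Members with GGAAGTG in the promoter window had a median log2 fold change of -0.47 (14 genes) in the ICM, against -0.05 for the 47 tested without it, and of -0.35 against 0.08 (48 genes) in 2iES cells. Over all genes with a window the medians were -0.31 with the motif and 0.04 without it in the ICM, and -0.46 and 0.02 in 2iES cells. The printed promoters of *Rps27*, *Rpl37*, *Rps18* and *Rps13* hold these letters, and those of *Rps21*, *Rpl39l* and *Rps27l* hold CCGGAA alone. For CCGGAA the members' medians were -0.14 with and -0.07 without it in the ICM, and -0.10 and 0.00 in 2iES cells. Over all genes the CCGGAA medians lay further apart, at -0.31 and 0.12 in the ICM, -0.44 and 0.10 in 2iES cells and -0.20 and 0.08 in late two-cell embryos. The members of late two-cell embryos had medians of -0.25 and -0.15 for CCGGAA and -0.27 and -0.18 for GGAAGTG. No test was made of these splits, which were chosen with the results known.

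Many ribosomal protein genes share sequence with pseudogenes and neighbours, and 55 of the 82 shared at least 20% of their 31-base words with another gene. The median log2 fold change of these 55 and of the other members was -0.22 and -0.19 in late two-cell embryos, -0.10 and -0.09 in the ICM and -0.06 and -0.02 in 2iES cells. Of the genes described above, *Rpl29* shared 44.92% of its words, *Rps27* 27.57%, mostly with *Rps27rt*, *Rps21* 19.55%, *Rpl37* 16.59%, *Rps27l* 16.05% and *Rpl39l* 2.05%. How reads were divided between such copies bears on their levels, and the kit keeps no strand, so antisense reads are not told apart.

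Other genes of translation were counted beside the ribosomal proteins, and their counts are to be read against all genes, of which 7.24% fell and 1.32% rose in late two-cell embryos, 38.5% and 38.4% in the ICM, and 28.1% and 26.5% in 2iES cells. Of 6 ribosomal protein genes that the naming rule leaves out, 2 fell at the late two-cell stage, 4 fell and 2 rose in the ICM, and 2 fell and 1 rose in 2iES cells. Of 14 other TOP mRNA genes, 3 fell at the late two-cell stage, 7 fell and 7 rose in the ICM, and 6 fell and 3 rose in 2iES cells (medians -0.09, 0.05 and -0.11). Of 29 initiation factor genes 8 fell, then 17 fell and 6 rose, and 17 fell and 4 rose (medians -0.19, -0.13 and -0.45). The 8 chaperones that escort ribosomal proteins had the lowest medians, with 4, 7 and 7 lower (-0.49, -0.80 and -0.77). Of 8 growth regulators 1 fell at the late two-cell stage, 5 fell and 3 rose in the ICM, and 4 fell and 2 rose in 2iES cells (0.03, -0.35 and -0.41). None of these 5 lists had a member past the threshold in morulae with edgeR, where their medians lay between -0.15 and 0.18.

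Among these lists *Eif3m* and *Eif3i*, subunits of the factor that loads the small subunit, and *Eif2b2*, which recharges the initiation factor eIF2 (eukaryotic initiation factor 2), fell most at the late two-cell stage. *Eif3m* went from 268 ± 23 to 76.5 ± 14.5 TPM, with a log2 fold change -1.88 ± 0.13, adjusted p = 1.11e-05. *Eif2b2* (log2 fold change -1.61 ± 0.18, adjusted p = 0.000233) and *Eif3i* (-1.60 ± 0.11, adjusted p = 1.23e-05) followed. In the ICM the lowest were *Eif4ebp1*, the mTORC1 target that holds back cap-dependent translation, *Pdcd2*, a chaperone of *Rps2* protein, and *Eif3k*. *Eif4ebp1* went from 1493 ± 15.9 to 338 ± 0.778 TPM, with a log2 fold change -2.22 ± 0.02, adjusted p = 4.18e-41, and the log2 fold changes of *Pdcd2* and *Eif3k* were -2.21 and -2.05. The highest there were *Pabpc1*, *Eef2* and *Eif2s3x* (0.63, 0.55 and 0.49). In 2iES cells *Eif2b2* went from 68.3 ± 12.6 to 6.54 ± 0.615 TPM, with a log2 fold change -3.46 ± 0.19, adjusted p = 4.39e-05, before *Eif3i* (-2.73) and *Eif6* (-2.19), which keeps free large subunits apart from small ones. *Pabpc1* (1.10), *Eif4a2* (1.06) and *Rptor* (0.62, at about 1 TPM) were highest.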

How the data were processed

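RNA of 18 of the 45 samples was analysed, and the others were not used here. Libraries were made with SMART-Seq v4 and Nextera XT and sequenced in pairs. According to the methods, reads were trimmed with Trimmomatic 0.39, aligned by STAR (GRCm38) and assigned to genes by RSEM, which divides reads between copies. The authors deposited expected counts, TPM and FPKM per gene, and posterior means and deviations of the counts, on which no test rests. Genes were named from GENCODE M21 (54487 identifiers matched with their version, 55144 with or without it).

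Expected counts were rounded and compared with edgeR 4.0.16 (quasi-likelihood test, TMM scaling) in R 4.3.3, within each stage, over the 9 controls, and over all 18 libraries for differences between stages. Genes needed 10 counts in at least the number of libraries in the smaller group, and p-values were adjusted by Benjamini-Hochberg over all genes tested. Standard errors were taken from the fold change and its F statistic. A 2-fold call also needed a mean FPKM of 1 in 1 group. Levels are TPM. DESeq2 1.42.0, limma 3.58.1 on log2(TPM + 1), other scalings, no filter, left-out libraries, a test against 1.5-fold and replicate blocks were alternatives. Named members are, for each comparison, the 5 lowest and 5 highest log2 fold changes (in control comparisons among those past the threshold), all 2-fold calls under dTAG13, the 3 highest levels in controls, the paralogue pairs and *Gabpa*; from the other lists, the 3 lowest and 3 highest past the threshold. *Rplp0*, *Rps13* and the genes given for an overlap or a shared sequence were named after their values were seen, and some members that the rule names are not reported here. The members and lists were chosen with earlier results of these data known. Fits were tested on simulated data. Replicate libraries differed by more than sampling noise in every group (variance ratio 1.62 to 16.09), but least in the ICM. The ratio was 1.62 with DMSO and 1.69 with dTAG13 there, and 2.86 or more in the other groups. The very small p-values in the ICM thus rest on replicates that differed little beyond sampling. *Rpl3l* did not pass the filter on low counts in morula and ICM at depths of 9457933 to 27660132 counts.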

Additional observations from a re-analysis of the deposited data

Results flagged for a closer look

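The results in this part were flagged because the effect of dTAG13 differed between stages by the interaction term of the fit over all 18 libraries (edgeR, adjusted over all genes). Between the E4.5 ICM and the late two-cell stage the effect was lower for 6 members (7.32%) and higher for 13 (15.9%), against 9.87% and 10.4% of all genes. *Rpl37* (-1.65) and *Rps14* (-0.84) were lower on the log2 scale, and *Rpl39l* (1.62) and *Rps27l* (0.91) were higher. Between 2iES cells and ICM it was lower for 2 members (2.44%) and higher for 11 (13.4%), against 7.42% and 9.93% of all genes. *Rps21* (-0.88) was among the lower, and *Rpl39* (1.13) and *Rps25* (0.87) were among the higher. For *Rpl39* and *Rps25* the DMSO libraries of 2iES cells lay apart, at 821 and 1451 TPM and 2758 and 4578 TPM. Between 2iES cells and late two-cell embryos 7 members (8.54%) were lower and 29 (35.4%) higher, against 9.83% and 13.1% of all genes. *Rpl3l* (-2.15, at under 1 TPM in 2iES cells) and *Rpl37* (-1.91) were lower, and *Rpl39l* (2.14) and *Rps27l* (1.48) were higher. Dose differed between the embryos (1 μM) and 2iES cells (0.5 μM), but not between late two-cell embryos and the ICM. The start of exposure differed between these stages, and embryos and a cell line cannot be told apart from stage.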

How the results depend on the processing

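None of the 26 dTAG13 effects of named members past the threshold changed direction under an alternative that was run. In the control comparisons, members past the threshold turned with limma (6 of 78 for 2iES cells against ICM, among them *Rpl3* at -0.27, *Rpl4* at -0.19, *Rpl37a* at -0.08 and *Rpl17* at -0.09, and 1 of 70 for ICM against morulae) and with library totals (*Rpl3* at -0.13 and *Rpl4* at -0.03). Under the other alternatives none did. The members lower or higher at an adjusted p under 0.05, or at 2-fold, moved by more than 1.5 times as follows, and where no construction is named the cause was not tested. With upper-quartile scaling 11 members were lower at the late two-cell stage, and 16 were lower, 31 higher and 2 higher 2-fold in 2iES cells, while 0 were higher in control ICM than in morulae. With limma on log2(TPM + 1) 9 were higher in 2iES cells with dTAG13. In the control comparisons limma gave 2 lower in morulae than in late two-cell embryos, 5 higher and 12 lower 2-fold in ICM than in morulae, and 3 lower, 48 higher and 0 higher 2-fold in 2iES cells than in ICM. Library totals gave 2 higher in ICM than in morulae, and 2 lower and 4 higher 2-fold in 2iES cells than in ICM. The fit of all 18 libraries gave 22 lower and 4 higher in ICM with dTAG13, and 2 higher in control ICM than in morulae. TMM without ribosomal protein genes gave 0 higher there. For differences between stages, a fit of only the libraries of both stages gave 20 higher (ICM minus late two-cell) and 9 lower and 24 higher (2iES cells minus ICM). For 2iES cells minus ICM, DESeq2 gave 5 lower, limma 7 lower and 5 higher, and library totals 6 higher. For 2iES cells minus late two-cell embryos limma gave 12 lower and 12 higher. Leaving out 1 library gave 11 to 21 lower and 0 to 2 higher at the late two-cell stage, 0 to 6 lower in morulae, and 14 to 40 lower, 2 to 25 higher and 1 to 3 higher 2-fold in 2iES cells. It gave 0 to 1 higher in control ICM than in morulae and 1 to 2 lower in control 2iES cells than in ICM. It gave 3 to 8 lower and 3 to 8 higher for ICM minus late two-cell, 3 to 12 higher for 2iES cells minus ICM, and 16 to 28 higher for 2iES cells minus late two-cell. Same-numbered libraries deviated together by a correlation of 0.04 to 0.104 at the late two-cell stage, 0.014 in morulae, -0.015 in ICM and -0.108 in 2iES cells, so the numbers were not taken to pair the libraries. With a replicate block 22 members were lower and 2 higher in late two-cell embryos, 0 and 0 in morulae, 49 and 20 in ICM, and 20 and 14, with 2 higher 2-fold, in 2iES cells. With the numbers of 2iES cells crossed, an alternative chosen after seeing the data, 26 were lower, 23 higher and 2 higher 2-fold. The fit and the summed share without mitochondrial transcripts, and the share of counts, were also added after seeing the data. The biological coefficient of variation was 0.284 in late two-cell embryos, 0.213 in morulae, 0.0237 in ICM and 0.159 in 2iES cells, and a member that missed the threshold was not shown to be unaffected.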
